A study of Mus with 51 samples.

Results

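The genes described here encode the signalling core of the T cell receptor (TCR) in CD4 T cells. They are 10 of the 34923 features of the count table: the CD3 chains *Cd3d*, *Cd3e*, *Cd3g* and *Cd247*, the coreceptor *Cd4*, the kinases *Lck* and *Zap70*, the adaptors *Lat* and *Lcp2*, and *Themis*. They were picked by symbol for their place in the pathway, and all 10 were among the 17211 genes with enough counts to be tested.

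RNA came from sorted lymph node T cells of 5C.C7 TCR transgenic mice (B10.A-Rag2tm1FwaH2-T18aTg (Tcra5CC7,Tcrb5CC7)lwep). These mice lack Rag2 and carry 1 rearranged receptor, which recognises a moth cytochrome c peptide (MCC). The 6 sorting phenotypes were MCC+GP CD69-hi, MCC CD69-hi, MCC+GP CD69-lo, MCC CD69-lo, GP and no peptide (NP), each at 1, 6 and 24 h. CD69 is a surface protein that appears early in T cell activation, and MCC cells were separated by it into a high and a low fraction. The labels do not spell out GP, and the title of the series speaks of endogenous self-peptides in CD4 T cells. All groups share the transgenes and the Rag2 deletion, so every comparison is within 1 receptor specificity. The labels give no age and do not say whether replicates came from separate mice, and p-values then measure only the spread between these samples, which may be technical.

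An antigen receptor has no enzyme of its own. The alpha and beta chains bind peptide on an MHC molecule, and the CD3 gamma, delta, epsilon and zeta chains carry the tyrosine motifs that signal inside the cell. Lck, brought in by CD4, phosphorylates these motifs, Zap70 docks on them, and Zap70 then phosphorylates the adaptors LAT and SLP-76 (encoded by *Lcp2*), on which calcium and Ras signalling is assembled. Themis binds the phosphatase SHP-1 (*Ptpn6*) and is best known for its part in thymocyte selection.

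On the mm10 assembly the genes for CD3 gamma, delta and epsilon are neighbours: *Cd3g* at chr9:44969572-44980431, *Cd3d* at chr9:44981769-44987052 and *Cd3e* at chr9:44998735-45009663. *Cd247*, the zeta chain gene, lies at chr1:165779952-165871153 and *Cd4* at chr6:124864693-124888247. *Lck* lies at chr4:129548344-129573641, *Zap70* at chr1:36761798-36782821, *Lat* at chr7:126363827-126369705, *Lcp2* at chr11:34046928-34092281 and *Themis* at chr10:28668360-28883820. Counts were summed over whole genes. Annotated genes overlap *Cd247* (*Pou2f1*, with 28611 counts over all libraries against 47269 for *Cd247*), *Zap70* and *Lcp2*, and the labels do not say whether strand was used in counting.

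The 51 libraries form 18 groups, of which 15 have 3 libraries. The NP, GP and MCC CD69-lo groups of 6 h have 2. Library totals spanned 29030 to 10278776 counts, with the shallowest in MCC+GP CD69-lo at 24 h (237390, 29030 and 301455). Transcripts of CD4 T cells were present in every group, and those of other cells varied. At 1 h, 18 of 20 B cell genes and 10 of 10 MHC class II presentation genes were called higher in MCC CD69-hi than in NP, and the B cell sum stood at 4354 ± 982 against 720 ± 130 plain CPM (counts relative to the library total, mean ± SD, n = 3 each). At 6 h it stood at 1434 ± 467 (n = 3) against 692 ± 214 (n = 2), and at 24 h at 303 ± 79.1 against 898 ± 144 (n = 3 each). Myeloid and dendritic genes summed to 461 ± 129 in MCC CD69-hi and 102 ± 22.5 in NP at 1 h, 806 ± 313 and 133 ± 108 at 6 h, and 204 ± 102 and 213 ± 154 at 24 h. No B cell gene of the list was at 0 in all libraries of either group, and of 26 myeloid and dendritic genes 3 were at 0 in MCC CD69-hi and 4 in NP at 6 h. In bulk samples fewer cells of a type and less RNA per cell cannot be told apart.

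In MCC CD69-hi cells against NP, *Zap70* and *Lcp2* rose at all 3 times, and *Cd247*, *Cd3d*, *Cd3e*, *Cd4* and *Themis* fell at all 3 times. At 1 h *Lcp2* and *Zap70* were called higher and *Cd3d*, *Cd3e*, *Cd247*, *Cd4* and *Themis* lower. A call is an adjusted p under 0.05 in edgeR's quasi-likelihood test over all 17211 genes. That made 7 of 10, where 29.4% of all genes were called, 12.4% higher and 17.0% lower. At 6 h 8 of 10 were called, where 46.7% of all genes were (23.2% higher, 23.6% lower), and at 24 h 10 of 10, where 57.8% were (29.2% higher, 28.7% lower). In each case 2 were higher, *Zap70* and *Lcp2*. The median log2 fold change of the 10 genes was -0.58, -0.73 and -0.82 at 1, 6 and 24 h, and that of all genes tested was -0.05, 0 and -0.14. Of 14 CD4 T cell genes outside the receptor complex, 10 were also called lower at each of the 3 times, with list medians of -0.88, -1.05 and -1.10. RNA of other cells differed between these groups at all 3 times, the B cell sum being higher at 1 and 6 h and lower at 24 h. Its part in the results was not tested beyond the covariate fits quoted below.

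**Figure D1:**
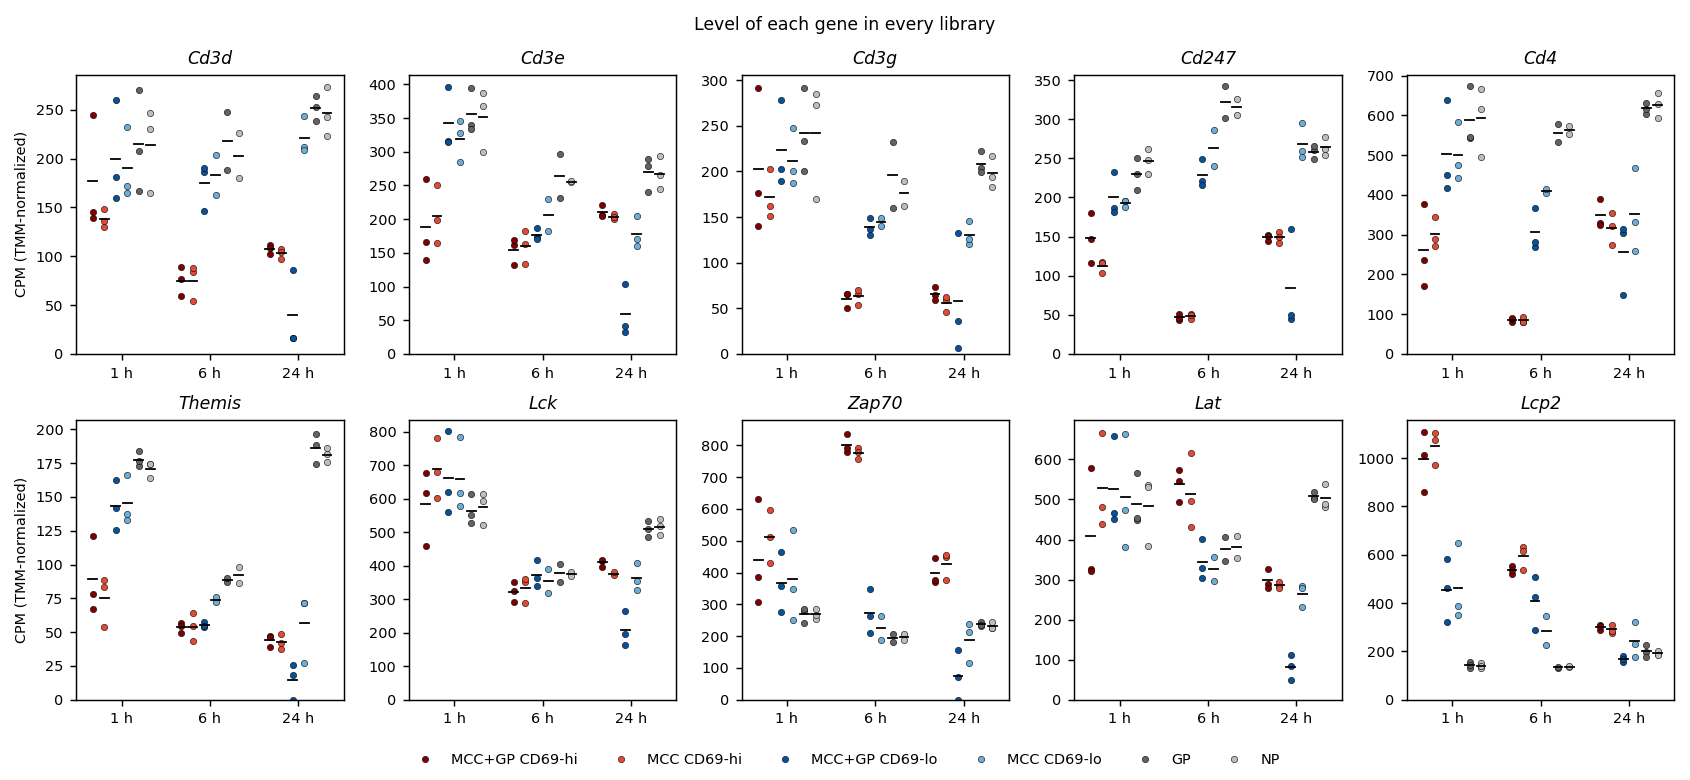
Level of each of the 10 genes in every library (points), in TMM-normalized CPM on an axis from 0, by time and sorting phenotype, with a short line at each group mean. At 6 h the MCC CD69-hi libraries lie below all NP libraries for *Cd247* (44.8 to 51.6 against 306 to 326) and above them for *Zap70* (756 to 793 against 189 to 206).

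*Cd247* encodes the zeta chain, which carries most of the tyrosine motifs of the complex. In MCC CD69-hi cells it had 103, 118 and 116 CPM at 1 h, against 262, 248 and 230.1 CPM in NP. At 6 h it had 44.8, 51.6 and 49.98 CPM, against 326 and 306 CPM in NP, and at 24 h 142, 156 and 149.8 CPM, against 255, 261 and 277 CPM. No library of the one group reached into the range of the other at any time, and the gap was widest at 6 h. Such separation was common among all genes tested. MCC CD69-hi libraries all lay higher for 12.8% and all lower for 24.1% at 1 h. These shares were 32.4% and 33.2% at 6 h, and 34.5% and 34.2% at 24 h. They stand beside each later statement on overlap in CPM between these groups. On the log2 scale the fold change was -1.14 ± 0.16 (SE, adjusted p = 1.80e-07) at 1 h, -2.69 ± 0.18 (adjusted p = 1.12e-19) at 6 h and -0.83 ± 0.16 (adjusted p = 7.99e-06) at 24 h. The 6 h difference was greater than that of 1 h by -1.55 ± 0.24 (adjusted p = 5.04e-07), in a test that called 29.9% of all genes, and the 24 h difference was smaller than that of 6 h by 1.87 ± 0.24 (adjusted p = 9.42e-09), in a test that called 22.9%. The 1 h change was the same in direction and call with other-cell transcripts as a covariate. That fit cannot decide the part of such RNA, as the B cell sums did not overlap at 1 h (3382 to 5346 against 626 to 869 plain CPM).

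*Cd3g* and *Cd3d*, the gamma and delta chain genes, were lower at 6 and 24 h. *Cd3g* had 151, 203 and 162 CPM in MCC CD69-hi cells at 1 h, against 285, 273 and 170.1 CPM in NP, and these ranges overlapped. At 24 h it had 58.7, 62.2 and 46.1 CPM, against 184, 194 and 217 CPM in NP, with no overlap. Its log2 fold change was -0.52 ± 0.22 at 1 h, which was not called (adjusted p = 0.0796) but was with the replicate block by plate round (-0.51, 0.0396) or without NP replicate 3 (-0.71, 0.0197), -1.47 ± 0.24 (adjusted p = 1.62e-06) at 6 h and -1.83 ± 0.23 (adjusted p = 1.97e-09) at 24 h. The 24 h difference exceeded the 1 h difference by -1.32 ± 0.32 (adjusted p = 0.000619), in a test that called 45.1% of all genes. *Cd3d* averaged 75.1 ± 18.4 CPM in MCC CD69-hi cells (n = 3) and 203 ± 33.01 CPM in NP (n = 2) at 6 h, and 103 ± 5.73 and 246 ± 25.4 CPM at 24 h (SD, n = 3 each). It fell by 1.43 ± 0.24 on the log2 scale at 6 h (adjusted p = 2.22e-06) and by 1.26 ± 0.22 at 24 h (adjusted p = 3.32e-06). Its 1 h call (-0.64 ± 0.23, adjusted p = 0.0283) was lost with other-cell transcripts as a covariate (adjusted p = 0.936), with RLE size factors (0.0770), in DESeq2 (0.0580), with just the compared groups (0.05001) and without any 1 of 5 of the 6 libraries (0.0843 to 0.225).

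*Cd3e*, the epsilon chain gene, was lower at each time, with a smaller fold change than *Cd3d* and *Cd3g* at 6 and 24 h but not at 1 h. It had 165, 251 and 199 CPM in MCC CD69-hi cells at 1 h, against 387, 368 and 300.0 CPM in NP, and 134, 182 and 163 CPM at 6 h, against 255 and 256 CPM. At 24 h the MCC CD69-hi libraries had 199.9, 207 and 203 CPM and the NP libraries 265, 245 and 293 CPM. The groups did not overlap at any time. Their log2 fold change was -0.80 ± 0.17 (adjusted p = 0.000307), -0.68 ± 0.19 (0.00202) and -0.40 ± 0.17 (0.0406) at 1, 6 and 24 h. With other-cell transcripts as a covariate it was not called at 1 h (adjusted p = 0.503) or 6 h (0.0764), and the 24 h call was lost without NP replicate 1 or 3 or MCC CD69-hi replicate 1 or 3 (0.0671 to 0.145).

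The proportions of the 4 CD3 genes to each other changed. They were taken per transcript length, from the deposited length-scaled table. As a share of the summed length-scaled values of the 4 genes, *Cd3e* made up 36.4 ± 1.77% in MCC CD69-hi cells (n = 3) and 21.9 ± 1.86% in NP (n = 2) at 6 h, and 35.3 ± 1.27% and 21.5 ± 1.14% at 24 h (SD, n = 3 each). *Cd247* made up 9.18 ± 0.811% in MCC CD69-hi cells and 22.1 ± 0.837% in NP at 6 h. At 24 h its share was 21.2 ± 0.826% in MCC CD69-hi cells, above the 17.4 ± 0.603% of NP, although its level was below that of NP. *Cd3g* was the most abundant of the 4 per length in NP at each time. It made up 24.0 ± 2.85% in MCC CD69-hi cells and 39.7 ± 0.589% in NP at 24 h, while at 1 h its share was 48.9 ± 0.927% against 43.1 ± 3.63%. The share of *Cd3d* overlapped at 6 h (16.2 to 20.1% in the MCC CD69-hi libraries, against 17.6 to 19.8% in those of NP) and was lower at 24 h (18.5 to 20.5%, against 20.6 to 21.8%). The libraries of the groups did not overlap in the shares of *Cd3g* and *Cd247* at 1 h, of *Cd3e* and *Cd247* at 6 h, and of all 4 genes at 24 h. The 4 shares have a fixed total, so they are not independent of each other. How often shares within other sets of genes separate was not tested.

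**Figure D2:**
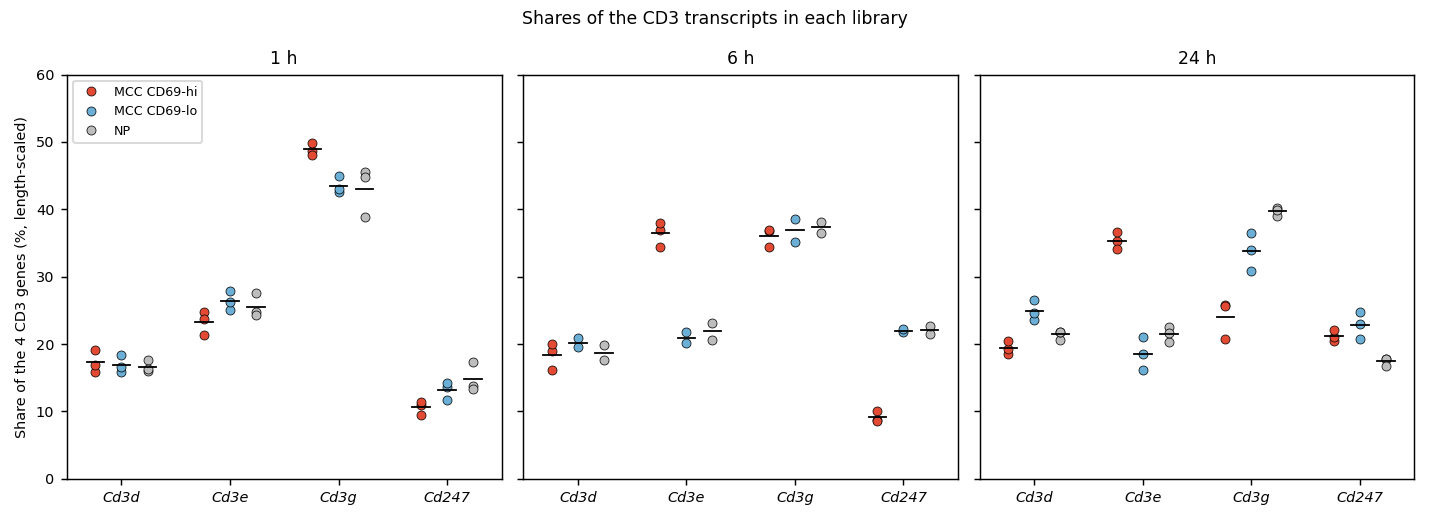
Share of each CD3 gene (%) in the summed length-scaled values of the 4 genes, per library (points) with group means (lines), for MCC CD69-hi, MCC CD69-lo and NP at 1, 6 and 24 h. *Cd3e* stands at 34.1 to 37.9% in the MCC CD69-hi libraries of 6 and 24 h and at 20.3 to 23.2% in those of NP, and *Cd247* at 8.63 to 10.1% against 21.5 to 22.7% at 6 h.

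The genes of the receptor's antigen-binding chains gave another picture. The mice carry alpha and beta chain transgenes, which these counts do not separate from the native genes. No value or ratio below can therefore be credited to the native loci. *Trac*, the constant region of the alpha chain, averaged 5034 ± 797 CPM in MCC CD69-hi cells (n = 3) and 2212 ± 74.1 CPM in NP (n = 2) at 6 h, a log2 fold change of 1.19 ± 0.19 (adjusted p = 3.00e-07), and it was also higher at 24 h (0.65 ± 0.16, adjusted p = 0.000541). *Trbc2*, a constant region of the beta chain, fell by 0.79 ± 0.14 at 1 h (adjusted p = 1.36e-05) and by 1.00 ± 0.14 at 24 h (adjusted p = 7.22e-09), and *Trbc1* was not called at 1, 6 or 24 h (adjusted p = 0.226, 0.109 and 0.108). Both beta constant regions are near-identical in their coding sequence, so reads may be split between them with error. The sum of the 4 CD3 genes over *Trac*, both length-scaled, was 0.145 ± 0.0107, 0.0410 ± 0.00282 and 0.0759 ± 0.00511 in MCC CD69-hi cells at 1, 6 and 24 h (n = 3 each), against 0.270 ± 0.0235 (n = 3), 0.249 ± 0.0121 (n = 2) and 0.259 ± 0.0236 (n = 3) in NP. The libraries did not overlap in this ratio at any time, and how often ratios of other genes separate was not tested.

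*Cd4*, the coreceptor gene, was lower at each time. It had 272, 345 and 289 CPM in MCC CD69-hi cells at 1 h, against 616, 667 and 495 CPM in NP. By 6 h its level was 79.4, 80.1 and 93.1 CPM, against 554 and 573 CPM, and at 24 h 353, 321 and 274 CPM, against 655, 592 and 629 CPM. The groups were apart at each time and farthest apart at 6 h. Log2 fold changes were -0.98 ± 0.19 (adjusted p = 4.38e-05) at 1 h, -2.74 ± 0.21 (adjusted p = 3.23e-17) at 6 h and -0.98 ± 0.19 (adjusted p = 6.75e-06) at 24 h. The 6 h difference was greater than that of 1 h by -1.76 ± 0.28 (adjusted p = 7.72e-07), and the 24 h difference smaller than that of 6 h by 1.76 ± 0.28 (adjusted p = 1.72e-06). With other-cell transcripts as a covariate the 1 h change was not called (-0.46, adjusted p = 0.284).

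*Themis* was low in MCC CD69-hi cells at each time, and its level in NP was itself lower at 6 h. It had 88.6, 53.6 and 83.5 CPM in MCC CD69-hi cells at 1 h, against 174, 164 and 174 CPM in NP, and 64.5, 54.4 and 43.5 CPM at 6 h, against 98.5 and 86.2 CPM. At 24 h it had 48.9, 37.7 and 41.8 CPM, against 182, 186 and 176 CPM in NP. The groups did not overlap. Its log2 fold change was -1.14 ± 0.19 (adjusted p = 2.54e-06), -0.77 ± 0.20 (0.000819) and -2.08 ± 0.18 (4.67e-15) at 1, 6 and 24 h. The 24 h difference was greater than that of 1 h by -0.94 ± 0.26 (adjusted p = 0.00198) and than that of 6 h by -1.31 ± 0.27 (adjusted p = 0.000198).

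The kinases differed from each other. *Lck*, whose product starts the cascade, had 602, 782 and 679.7 CPM in MCC CD69-hi cells at 1 h, against 615, 593 and 520.1 CPM in NP, and the groups overlapped. At 6 h it averaged 334 ± 39.3 CPM in MCC CD69-hi cells (n = 3) and 376 ± 8.47 CPM in NP (n = 2). It was called only at 24 h, where the MCC CD69-hi libraries had 374, 371 and 380.0 CPM and the NP libraries 539, 517 and 492 CPM (log2 fold change -0.46 ± 0.15, adjusted p = 0.00609). The values were 0.25 ± 0.15 at 1 h (adjusted p = 0.200) and -0.17 ± 0.16 at 6 h (adjusted p = 0.413). At 1 h 6 alternatives called *Lck* higher, DESeq2 (adjusted p = 0.00753) and RLE size factors (0.0286) among them.

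*Zap70*, whose product binds the phosphorylated CD3 chains, rose at each time. It had 431, 597 and 511 CPM in MCC CD69-hi cells at 1 h, against 254, 286 and 267 CPM in NP. Its 6 h values were 793, 779.8 and 756 CPM, against 189 and 206 CPM, and at 24 h 448, 456 and 378 CPM, against 227, 245 and 227 CPM. Every MCC CD69-hi library exceeded every NP library of its time. The log2 fold change was 0.93 ± 0.26 (adjusted p = 0.00551) at 1 h, 1.97 ± 0.30 (adjusted p = 6.91e-07) at 6 h and 0.88 ± 0.26 (adjusted p = 0.00330) at 24 h, and with other-cell transcripts as a covariate it was not called at 24 h (0.45, adjusted p = 0.0986). The rise at 6 h exceeded that at 1 h by 1.05 ± 0.39 (adjusted p = 0.0356), a call that was lost without any 1 of 10 of the 11 libraries or with RLE size factors (0.0812). Per length, *Zap70* stood at 0.701 ± 0.0235, 2.22 ± 0.327 and 1.08 ± 0.120 times *Lck* in MCC CD69-hi cells at 1, 6 and 24 h, against 0.443 ± 0.0480, 0.496 ± 0.0408 and 0.426 ± 0.0263 in NP.

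Of the adaptors, *Lcp2* had the greatest rise of the 10 genes at 1 h, while at 6 h it and *Zap70* rose by amounts within 1 SE of each other and at 24 h the value of *Zap70* was the larger (0.88 against 0.60), differences that were not tested. It had 972, 1105 and 1075 CPM in MCC CD69-hi cells at 1 h, against 131, 152 and 141 CPM in NP. At 6 h it had 536, 632 and 615 CPM, against 136 and 138 CPM, and at 24 h 275, 311 and 286 CPM, against 187, 203 and 185 CPM. The gap between the groups narrowed with time and no library overlapped. The log2 fold change was 2.89 ± 0.20 (adjusted p = 1.86e-17), 2.12 ± 0.23 (5.27e-12) and 0.60 ± 0.19 (0.00469) at 1, 6 and 24 h. The 24 h difference was smaller than that of 1 h by -2.29 ± 0.27 (adjusted p = 2.02e-10) and than that of 6 h by -1.51 ± 0.28 (adjusted p = 4.59e-05). With other-cell transcripts as a covariate the 24 h rise was not called (0.28, adjusted p = 0.201).

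*Lat*, whose product SLP-76 joins through a bridging adaptor, was not called at 1 h or 6 h and was lower at 24 h. At 1 h it had 438, 667 and 482 CPM in MCC CD69-hi cells, against 536, 532 and 383 CPM in NP, with overlap (log2 fold change 0.12 ± 0.19, adjusted p = 0.674), but with other-cell transcripts as a covariate it was called higher (0.84, adjusted p = 0.0151). The 6 h values were 432, 496 and 617 CPM, against 353 and 409 CPM, all MCC CD69-hi libraries lying higher, with a log2 fold change of 0.43 ± 0.21 that was not called (adjusted p = 0.0804). The 6 h change was called with the replicate block by plate round (0.49, adjusted p = 0.0138) and with other-cell transcripts as a covariate (0.82, adjusted p = 0.000824). At 24 h it had 285, 294 and 279.6 CPM, against 481, 538 and 489 CPM, a fall of 0.81 ± 0.18 on the log2 scale (adjusted p = 0.000142). Per length, *Lcp2* stood at 1.22 ± 0.197, 0.703 ± 0.0910 and 0.609 ± 0.0281 times *Lat* in MCC CD69-hi cells at 1, 6 and 24 h, against 0.180 ± 0.0376, 0.217 ± 0.0202 and 0.229 ± 0.00407 in NP.

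**Figure D3:**
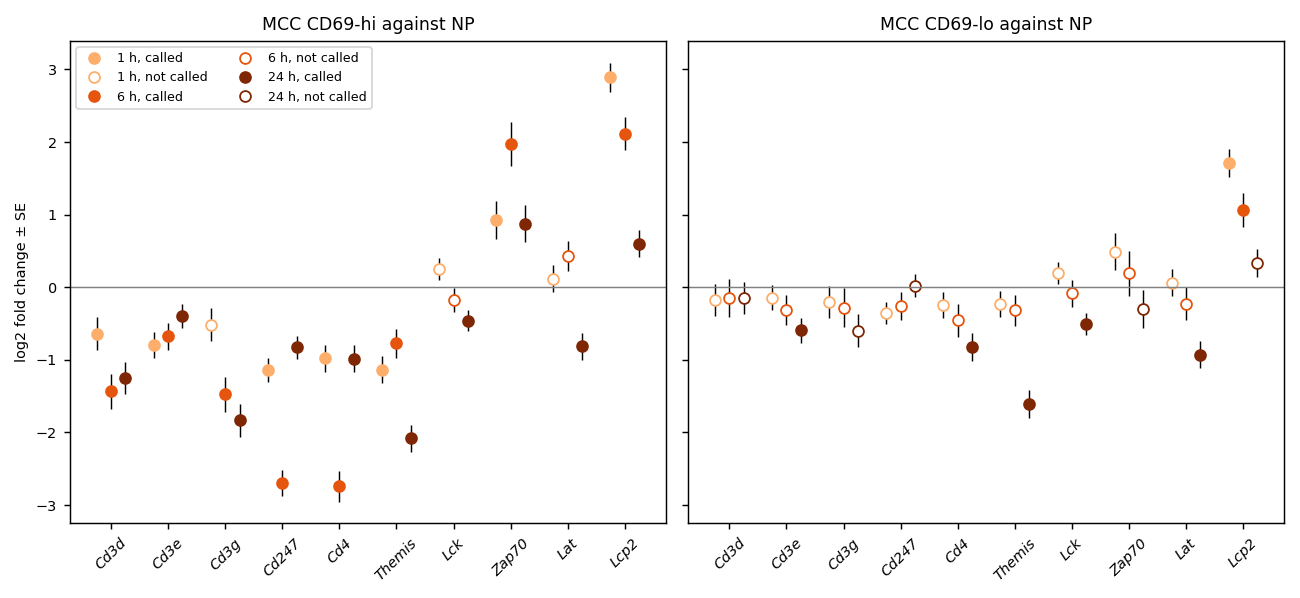
Log2 fold change against NP (points) with SE (bars) for each gene at 1, 6 and 24 h, in MCC CD69-hi cells (left) and MCC CD69-lo cells (right), filled where called. In CD69-hi cells *Zap70* and *Lcp2* lie above 0 and the CD3 genes, *Cd4* and *Themis* below, and in CD69-lo cells *Lcp2* is the gene called at 1 h (1.71) and 6 h (1.06).

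In MCC CD69-lo cells, *Lcp2* was the member called against NP at 1 and 6 h. It had 648, 389.5 and 349 CPM in MCC CD69-lo cells at 1 h, where NP had 131, 152 and 141 CPM, and 226 and 346 CPM at 6 h, where NP had 136 and 138 CPM. All MCC CD69-lo libraries were above those of NP, which held for 10.5% of all genes tested at 1 h and 24% at 6 h. The log2 fold change was 1.71 ± 0.19 (adjusted p = 2.54e-09) at 1 h and 1.06 ± 0.23 (adjusted p = 0.00268) at 6 h. It made 1 of 10 genes called at each of these times, where 3.15% (2.72% higher) and 2.12% of all genes were called. At 1 h *Zap70* (0.49 ± 0.25, adjusted p = 0.468) was called higher with the replicate block (0.68, 0.0152) and with other-cell transcripts as a covariate (1.07, 0.0127), and *Cd247* (-0.36 ± 0.16, 0.313) was called lower in DESeq2 (-0.37, 0.00464). The 6 h call of *Lcp2* was lost without MCC CD69-lo replicate 2 (adjusted p = 0.304) or without either NP library (0.0818 and 0.0756), fits in which the lone library left is assumed to vary like the other groups. B cell genes were also higher in this fraction at 1 h, with 16 of 20 called and a sum of 2574 ± 1873 plain CPM against 720 ± 130 in NP (n = 3 each). At 6 h myeloid and dendritic genes summed to 1173 ± 200 plain CPM in MCC CD69-lo cells and 133 ± 108 in NP (n = 2 each). MHC class II presentation genes summed to 972 ± 332 and 262 ± 177. The part of such RNA in the *Lcp2* values was not tested beyond the covariate fits.

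At 24 h MCC CD69-lo cells had lower *Themis* (27.4, 71.6 and 71.2 CPM, against 182, 186 and 176 CPM in NP) and lower *Lat*, *Cd4*, *Cd3e* and *Lck*. These made 5 of 10, all lower, where 18.5% of all genes were called, 9.83% higher and 8.65% lower. The log2 fold change was -1.61 ± 0.19 for *Themis* (adjusted p = 6.35e-09), -0.93 ± 0.19 for *Lat* (0.000215), -0.82 ± 0.19 for *Cd4* (0.000940), -0.59 ± 0.18 for *Cd3e* (0.0125) and -0.50 ± 0.15 for *Lck* (0.0125). *Cd3g* (-0.60 ± 0.23, adjusted p = 0.0584) was called lower with no filter on low counts, without the 3 shallowest libraries and with just the compared groups (0.00614 to 0.0365). *Cd247* had 295, 259 and 252 CPM in MCC CD69-lo cells, against 255, 261 and 277 CPM in NP (0.02 ± 0.16). Myeloid and dendritic genes summed to 1878 ± 428 plain CPM in these MCC CD69-lo libraries and 213 ± 154 in NP, with 13 of 24 tested called higher. With other-cell transcripts as a covariate 2 genes were called, *Themis* lower and *Lcp2* higher, and *Cd4*, *Lat*, *Cd3e* and *Lck* were not (adjusted p = 0.104 to 0.440). The *Cd3e* call was also lost without NP or MCC CD69-lo replicate 3 (0.0597 and 0.0674), and that of *Lck* without MCC CD69-lo replicate 1 (0.0638) or with just the compared groups (0.0760).

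Set directly against MCC CD69-lo cells, MCC CD69-hi cells had lower *Cd247* at each time, with log2 fold changes of -0.79 ± 0.16 at 1 h (adjusted p = 0.000503), -2.43 ± 0.18 at 6 h (9.38e-18) and -0.84 ± 0.16 at 24 h (8.36e-06). *Cd4* was lower at 1 h (-0.74 ± 0.19, adjusted p = 0.00493) and 6 h (-2.28 ± 0.21, 3.23e-14), and at 24 h the fractions had 353, 321 and 274 CPM and 258, 332 and 468 CPM, with overlap (-0.16 ± 0.19, adjusted p = 0.458), although *Cd4* was called lower there with RLE size factors (-0.40, 0.04496), in DESeq2 (-0.40, 0.0463) and with the covariate (-0.71, 0.0314). *Cd3d* and *Cd3g* were lower at 6 h (-1.28 ± 0.24 and -1.19 ± 0.24) and 24 h (-1.10 ± 0.22 and -1.24 ± 0.23), with adjusted p from 1.34e-05 to 7.09e-05. *Zap70* was higher at 6 h (1.78 ± 0.30, adjusted p = 4.40e-06) and 24 h (1.18 ± 0.26, 0.000197). *Lcp2* was higher at 1 h (1.19 ± 0.19, adjusted p = 5.58e-06) and 6 h (1.05 ± 0.21, 3.77e-05), and *Lat* at 6 h (0.66 ± 0.21, adjusted p = 0.00757), a call lost without MCC CD69-lo replicate 1 (0.126). *Themis* was lower at 1 h (-0.91 ± 0.19, adjusted p = 0.000387) and 24 h (-0.47 ± 0.19, 0.0301), and *Cd3e* at 1 h (-0.65 ± 0.17, 0.00721). In all, 5 of 10 genes were called at 1 h (1 higher, 4 lower), where 12.5% of all genes were (3.46% higher, 9.06% lower). At 6 h 7 of 10 were called (3 higher, 4 lower), where 42.4% of all genes were (19.9% higher, 22.5% lower), and at 24 h 5 of 10 (1 higher, 4 lower), where 61.7% were (29.1% higher, 32.6% lower). At 1 h the *Cd3e* and *Cd4* calls were lost without MCC CD69-hi replicate 1 or 3, or without MCC CD69-lo replicate 1 (adjusted p = 0.0560 to 0.154), and the *Cd3e* call also with the covariate (0.0587) or just the compared groups (0.114). The *Themis* call at 24 h, where the fractions overlapped, was lost with no filter on low counts (0.0524), with the covariate (0.0820), with just the compared groups (0.0566) and without MCC CD69-hi or MCC CD69-lo replicate 2 or 3 (0.0545 to 0.283). At 24 h the *Zap70* call was lost with other-cell transcripts as a covariate (0.21, 0.644), B cell genes there summing to 303 ± 79.1 plain CPM in MCC CD69-hi cells and 1402 ± 493 in MCC CD69-lo cells. Myeloid and dendritic genes summed to 204 ± 102 and 1878 ± 428, and MHC class II presentation genes to 113 ± 67.4 and 1200 ± 213. Library totals at 24 h spanned 7551281 to 8642984 counts in MCC CD69-hi cells and 941304 to 2870776 in MCC CD69-lo cells.

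Adding GP gave no called change of any of the 10 genes against NP at 1, 6 or 24 h, where 0, 0 and 0.00581% of all genes were called. None of the 10 reached an unadjusted p under 0.05 at any time, and DESeq2 called 0 as well. *Zap70* had 279, 287 and 239.8 CPM in GP cells at 1 h, against 254, 286 and 267 CPM in NP, and *Lcp2* had 129.9, 157 and 143 CPM, against 131, 152 and 141 CPM. *Themis* had 189, 197 and 174 CPM in GP cells at 24 h, against 182, 186 and 176 CPM in NP. The GP and NP ranges overlapped in each of these. Averaged over the 3 times, the log2 fold changes ran from -0.04 to 0.07, and the 95% intervals of all 10 genes lay between -0.32 and 0.35. Changes larger than these bounds, in either direction, lie outside the intervals, and smaller ones were not resolved.

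In cells that also received MCC, the CD69-hi fraction gave no call either. The 1 h comparison and the mean over times rest in part on shallow MCC+GP CD69-hi libraries. At 1 h these had 930161 to 1105292 counts, against a median of 5436653 over all libraries. With MCC+GP against MCC, 0 of 10 genes were called at 1, 6 and 24 h, where 0.680%, 0 and 0% of all genes were, and 0 in the mean over times, where 0.0116% were. At 1 h 1 gene had an unadjusted p under 0.05, *Cd247*, which had 180.0, 116 and 148 CPM in MCC+GP CD69-hi cells and 103, 118 and 116 CPM in MCC CD69-hi cells. DESeq2 called it (log2 fold change 0.51, adjusted p = 0.0126), whereas edgeR gave an adjusted p of 0.235. The shares of all genes at the unadjusted cutoff and called by DESeq2 are not given here. At 6 h *Cd247* had 43.2, 46.3 and 51.4 CPM in MCC+GP CD69-hi cells and 44.8, 51.6 and 49.98 CPM in MCC CD69-hi cells, and the groups overlapped. *Lck* lay higher in all MCC+GP CD69-hi libraries at 24 h (397 to 418 against 371 to 380 CPM) and was not called. Such separation held for 3.5% of all genes tested. The log2 fold changes in the mean over times ran from -0.09 to 0.14, with all 95% intervals between -0.39 and 0.41. The effect of GP in CD69-hi cells differed from its effect in cells without MCC for 0 of 10 genes (0 by DESeq2, 0 at an unadjusted p under 0.05), in a test that called 0% of all genes.

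In the CD69-lo fraction the same comparison gave 0 calls at 1 and 6 h and in their mean, where 0% of all genes were called each time. At 6 h *Cd4*, *Lcp2* and *Themis* had an unadjusted p under 0.05, with log2 fold changes for the 10 genes from -0.42 (*Cd4*) to 0.51 (*Lcp2*). *Cd4* had 367, 269 and 281 CPM in MCC+GP CD69-lo cells and 406 and 415 CPM in MCC CD69-lo cells, without overlap. *Themis* did not overlap either (53.75 to 57.65 against 72.27 to 75.77 CPM). *Lcp2* had 288, 509.8 and 423 CPM and 226 and 346 CPM, with overlap. Of all genes tested, 12% lay all lower and 8.62% all higher in this comparison. The share of all genes at the unadjusted cutoff is not given here. In the mean of 1 and 6 h the 95% intervals lay between -0.49 and 0.52. At 24 h 7 of 10 genes were called lower in MCC+GP CD69-lo cells, where 19.3% of all genes were called, 7.37% higher and 12.0% lower. These are the shallow libraries: the 10 genes together had 321, 53 and 474 counts, and *Zap70* and *Themis* had 0 counts in replicate 2, where 3 counts would be the upper limit. *Cd3d* had 16.0, 16.6 and 86.1 CPM in MCC+GP CD69-lo cells, against 212, 209 and 243 CPM in MCC CD69-lo cells (log2 fold change -2.15 ± 0.35, adjusted p = 1.25e-05). Myeloid and dendritic genes summed to 10320 ± 1449 plain CPM in MCC+GP CD69-lo cells and 1878 ± 428 in MCC CD69-lo cells at that time, and 14 CD4 T cell genes outside the receptor complex summed to 1834 ± 327 and 4224 ± 147 (SD, n = 3 each). When just these 2 groups were fitted, 2 of the 7 calls were made, those of *Cd3d* and *Lat*.

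**Figure D4:**
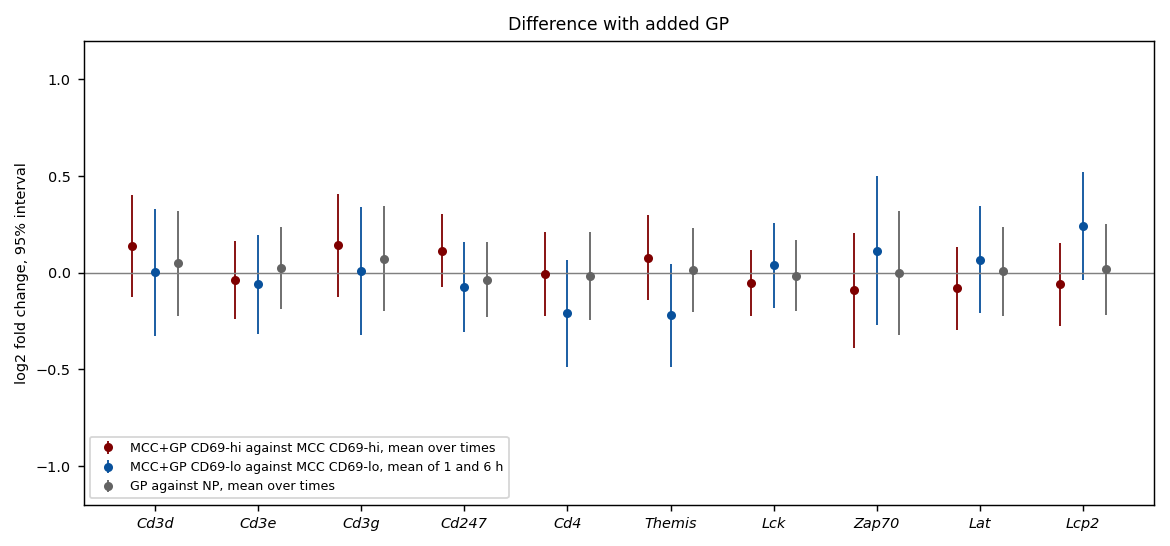
Log2 fold change with added GP (points) and 95% interval (bars) for each gene, in MCC CD69-hi cells (mean over 3 times), in MCC CD69-lo cells (mean of 1 and 6 h) and in cells without MCC (mean over 3 times). All intervals include 0 and lie between -0.49 and 0.52.

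Time without peptide moved a few of the genes. *Themis* had 98.5 and 86.2 CPM in NP cells at 6 h, against 174, 164 and 174 CPM at 1 h, a log2 fold change of -0.89 ± 0.20 (adjusted p = 0.000823). *Lck* had 382 and 370.2 CPM at 6 h, against 615, 593 and 520.1 CPM at 1 h (-0.61 ± 0.17, adjusted p = 0.00584). In both the 6 h libraries lay below those of 1 h, which held for 23.4% of all genes tested in NP. They were 2 of 10 genes called, where 16.5% of all genes were, and the *Lck* call was lost without NP 6 h replicate 1 or 2 or NP 1 h replicate 1 (adjusted p = 0.0531 to 0.0823). In GP cells, which are other samples, the same 2 were lower at 6 h than at 1 h (*Themis* -1.001 ± 0.20, adjusted p = 0.000175, and *Lck* -0.58 ± 0.17, 0.00961). There *Cd247* was also called, higher (0.48 ± 0.17, 0.0426), making 3 of 10 where 16.8% of all genes were called. That call was lost with other-cell transcripts as a covariate (0.42, adjusted p = 0.0718) and without GP 1 h replicate 1 or 3 or GP 6 h replicate 2 (0.05004 to 0.316), and the *Lck* call in GP cells without GP 1 h replicate 2 or GP 6 h replicate 1 (0.0885 and 0.264). By 24 h *Themis* had 182, 186 and 176 CPM in NP, and 0 of 10 genes were called against 1 h, where 24.0% of all genes were. At an unadjusted p under 0.05 there were *Cd3e* (-0.39 ± 0.17) and *Lcp2* (0.44 ± 0.19), and DESeq2 called *Lcp2*. The share of all genes at the unadjusted cutoff is not given here and is at least the 24.0% called. That of DESeq2 is not given either. Other alternatives also called members in this comparison, as listed in the last section. The comparisons of 6 h with 1 h were chosen after the values had been seen.

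Over all 18 groups the highest and lowest levels of the genes fell in different places. *Lcp2* was highest in MCC CD69-hi and MCC+GP CD69-hi cells at 1 h (1051 ± 69.7 CPM in MCC CD69-hi), which did not differ beyond their spread and lay above all libraries of the next group, and lowest in the NP and GP groups of 1 and 6 h, which overlapped. *Zap70* was highest in the same fractions at 6 h (776 ± 18.8 CPM in MCC CD69-hi), again above all libraries of the next group. *Cd247* and *Cd4* had their lowest means in both CD69-hi fractions at 6 h, for *Cd4* below all libraries of the next group, and for *Cd247* overlapping MCC+GP CD69-lo at 24 h (44.7 to 159 CPM). *Cd247* was highest in GP and NP at 6 h, and *Cd4* was highest in NP and GP at 24 h. *Lck* spanned the smallest range, 1.75 on the log2 scale between its lowest and highest group, against a median of 2.94 for all genes tested. *Zap70* spanned 5.58 and *Themis* 4.99, and for both the lowest group was MCC+GP CD69-lo at 24 h, with a library of 0 counts.

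Across the 18 group means of log2 CPM, the pairs most alike were *Cd3e* and *Themis* (Pearson r = 0.939), *Cd3d* and *Cd3g* (0.914), and *Cd247* and *Cd4* (0.906), and the least alike were *Cd4* and *Lcp2* (-0.587). Of all other genes tested, those nearest to the mean of the CD3 genes were *Tmem9b* (0.982), *Arhgef11* (0.982) and *Gatsl3* (0.979), those nearest to *Zap70* were *Surf6* (0.992), *Arhgef3* (0.991) and *Taf5l* (0.982), and those nearest to *Lcp2* were *Slc41a1* (0.975), *Dusp2* (0.962) and *Sh2b3* (0.951). *Themis* was nearest to *Synj2* (0.978), *Lbh* (0.960) and *Foxo1* (0.960), and *Cd4* to *Map3k3* (0.974), *C2cd5* (0.970) and *Cep164* (0.969). *Lat* was nearest to *Igf2r* (0.969), *Adnp* (0.964) and *Gm12940* (0.962), and *Lck* to *Atp2a3* (0.928), *Naaa* (0.926) and *Sh3pxd2a* (0.926). The points share groups, libraries and depth, and the 18 means include the shallow group.

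Around these 10 genes, a wider list of 61 pathway genes (60 tested) was described in the same way. In MCC CD69-hi cells against NP, 11 were called higher and 26 lower at 1 h, 16 and 29 at 6 h, and 15 and 32 at 24 h, with medians of -0.33, -0.46 and -0.54. Of all genes 12.4% were called higher and 17.0% lower at 1 h, 23.2% and 23.6% at 6 h, and 29.2% and 28.7% at 24 h. In MCC CD69-lo cells the numbers were 3 higher and 1 lower at 1 h, 5 and 0 at 6 h, and 6 and 10 at 24 h, where 2.72% and 0.436%, 2.12% and 0%, and 9.83% and 8.65% of all genes were called. In GP cells against NP none of the 60 was called at 1, 6 or 24 h.

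Among the 18 tested adaptors and enzymes near LAT, 11 were lower and 1 higher at 6 h, where 23.6% of all genes were lower and 23.2% higher. *Grap2*, which encodes the GADS adaptor that links LAT to SLP-76, fell by 4.22 ± 0.22 on the log2 scale (adjusted p = 2.38e-24), opposite in direction to *Lcp2*. *Fyb*, which encodes the adaptor ADAP, fell by 5.48 ± 0.23 (2.46e-28) and *Sit1*, a transmembrane adaptor gene, by 4.49 ± 0.38 (1.16e-15). At 24 h *Grap2* fell by 3.97 ± 0.20, *Fyb* fell by 4.92 ± 0.21 and *Sit1* fell by 2.49 ± 0.29.

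The 7 other kinases gave 2 higher and 4 lower at 6 h (23.2% and 23.6% of all genes). *Txk*, a Tec family kinase of resting T cells, fell by 4.38 ± 0.21 (adjusted p = 2.00e-25). *Fyn*, the other Src family kinase of T cells, rose by 1.49 ± 0.16 (1.16e-11). *Syk*, the relative of *Zap70* used by B cells, was higher at 1 h (2.41 ± 0.54, adjusted p = 0.000803) and lower at 24 h (-1.68 ± 0.59, 0.0144), and the B cell sum was likewise higher at 1 h and lower at 24 h in MCC CD69-hi cells than in NP. The part of B cell RNA in the *Syk* values was not tested.

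The 14 negative regulators split. At 6 h *Ubash3b*, a phosphatase gene that acts on Zap70, rose by 5.44 ± 0.32 (adjusted p = 1.65e-19), while its relative *Ubash3a* fell by 2.40 ± 0.29 (4.89e-09). *Sla*, encoding the adaptor SLAP, rose by 2.19 ± 0.19 (2.16e-15) and its relative *Sla2* fell by 5.53 ± 0.31 (1.75e-22). *Ptpn22*, whose phosphatase product acts on Lck and Zap70, rose by 2.18 ± 0.20 (3.78e-14) and *Ptpn6*, which encodes SHP-1, by 1.56 ± 0.18 (2.96e-11). *Dgka*, a diacylglycerol kinase gene, fell by 4.86 ± 0.19 (9.06e-29). In all, 5 were higher and 6 lower at 6 h (23.2% and 23.6% of all genes), and 6 and 6 at 24 h (29.2% and 28.7%).

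Of the 8 surface partners 4 were higher and 2 lower at 6 h, where 23.2% and 23.6% of all genes were. *Cd6* rose by 3.83 ± 0.31 (adjusted p = 1.95e-14), and *Ptprc*, which encodes the CD45 phosphatase that acts on Lck, by 1.21 ± 0.19 (1.63e-07). *Ly6e* fell by 2.24 ± 0.20 (1.60e-14). Of the 8 genes of the Ras, calcium and NF-kB branches 3 were higher and 5 lower, beside the same shares of all genes. *Malt1* rose by 2.77 ± 0.24 (6.85e-15) and *Orai1*, the pore of the store-operated calcium channel, by 2.35 ± 0.26 (8.50e-11), while *Stim1*, its calcium sensor, fell by 2.95 ± 0.18 (1.51e-21).

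**Figure D5:**
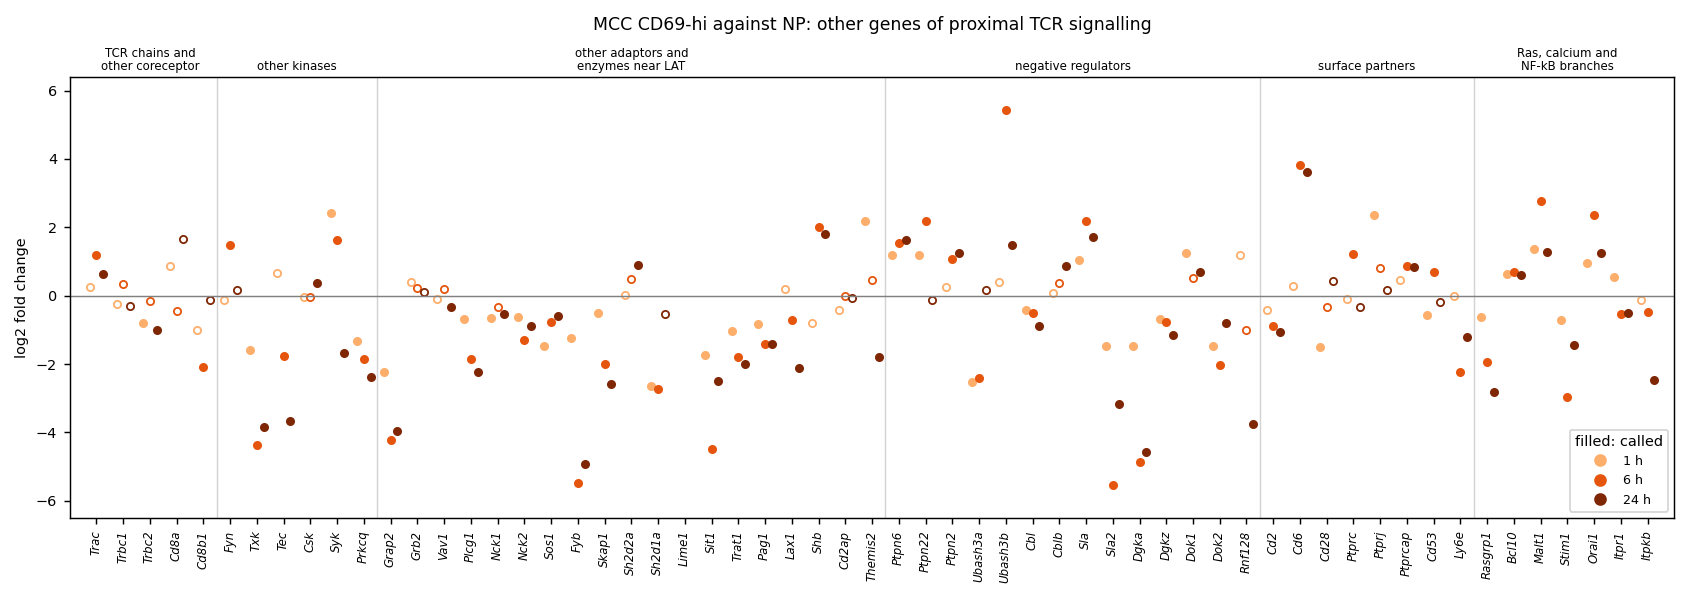
Log2 fold change in MCC CD69-hi cells against NP for the genes of the wider pathway list other than those not reported, by subgroup and time, filled where called (no point where a gene was not tested). At 6 h values run from -5.53 (*Sla2*) to 5.44 (*Ubash3b*).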

How the data were processed

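Poly-adenylated RNA of sorted cells was sequenced as paired reads. Per the submitters' processing notes, bcl2fastq 2.20, STAR 2.6.1c and HTSeq 0.9.1 were used with mm10. The deposited matrix of raw counts (34923 features, 38 with a repeated symbol, 0 unused columns) was used for all tests. A second deposited table, named TPM by the authors, has columns that sum to 9985.8 to 9995.6 and was read only for length-scaled shares and ratios between genes. The tables give no coordinates, and those printed are from RefSeq for GRCm38.p6, matched by symbol.

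After TMM normalization and filterByExpr by group, which left 17211 genes, 1 coefficient per group was fitted to all 51 libraries in edgeR 4.0.16 (robust quasi-likelihood F test, two-sided, Benjamini-Hochberg over all genes, threshold 0.05; R 4.3.3, limma 3.58.1). CPM are TMM-normalized, except summed markers, which are plain CPM with TMM not applied. A difference between times is the contrast of 2 differences. The 95% intervals come from the SE of the fit. Other-cell transcripts as a covariate means the log2 sum of the B cell, MHC class II and myeloid lists. Each of these sums was without overlap between MCC CD69-hi and NP at 1 h. The slope of the covariate rests on spread within groups and was extended across that gap, and 1 sum merges several cell types. Calls kept or lost in this fit therefore cannot decide the part of other-cell RNA. No replicate pair agreed within counting error (chi-square per degree of freedom 3.91 to 19.28). Floors of 3 counts cover counting error only. The steps were also run on simulated counts with changes set in MCC CD69-hi at 1 h. These counts held no effect of plate round or of other cells, and no support is drawn from them here.

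The 10 genes and all lists were chosen with earlier results of these data known. All 10 were described. Of each wider list up to 4 called genes per direction with the greatest change and a mean of at least 5 CPM could be named, and *Trbc1* was named besides with its values seen. For likeness the 3 nearest genes were named. The comparisons of 6 h with 1 h in NP and GP, and those of the 6 h effect with the effects at 1 and 24 h, were added after values were seen. Alternatives were RLE size factors, no filter, DESeq2 1.42.0, only the compared groups, a replicate block by plate round, the covariate, leaving out the 3 shallowest libraries and leaving out each library. Of the wider list 2 genes are counted in the totals and not reported here by name or in the plot.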

Additional observations from a re-analysis of the deposited data

Results flagged for a closer look

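For the genes below the difference between MCC CD69-hi and NP cells changed between times. The MCC CD69-hi minus NP log2 difference at one time was tested against that at another in edgeR, adjusted over all genes. MCC CD69-hi cells were also sorted by CD69, a split the labels do not give for NP. Peptide and sort gate cannot be told apart in these differences. Between 24 h and 1 h, where 45.1% of all genes were called, the difference changed by -1.32 for *Cd3g*, -0.71 for *Lck*, -0.93 for *Lat*, -2.29 for *Lcp2* and -0.94 for *Themis*. Between 6 h and 1 h, where 29.9% were called, it changed by -0.96 for *Cd3g*, -1.55 for *Cd247*, -1.76 for *Cd4*, 1.05 for *Zap70* and -0.78 for *Lcp2*. Between 24 h and 6 h, where 22.9% were called, it changed by 1.87 for *Cd247*, 1.76 for *Cd4*, -1.10 for *Zap70*, -1.25 for *Lat*, -1.51 for *Lcp2* and -1.31 for *Themis*. The comparisons between 6 h and the other times were chosen after values were seen. The B cell sum in MCC CD69-hi cells also changed between these times, and its part was not tested beyond the covariate fits. With it and the other lists as a covariate, the *Zap70* difference between 6 h and 1 h was 0.60 (adjusted p = 0.198). Leaving out single libraries ended the call of *Zap70* in 10 of 11 cases between 6 h and 1 h and in 6 of 11 between 24 h and 6 h, that of *Cd3g* in 3 of 11 between 6 h and 1 h, and that of *Lcp2* in 2 of 11.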

How the results depend on the processing

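Of the 195 counts of called members under alternatives other than leaving out a library, 179 were within 1.5 times the main count, and of 230 with 1 library left out, 217 were. For NP, 24 h against 1 h, where 0 members were called, 1 was called with RLE size factors, without a filter, with the covariate, without the 3 shallowest libraries and in DESeq2, and 2 with the replicate block or only the compared groups. For MCC CD69-lo against NP, 1 was called at 1 h against 2 with the replicate block, the covariate or DESeq2, and 5 at 24 h against 2 with the covariate. With GP added to MCC, 0 were called in CD69-hi cells at 1 h against 1 in DESeq2. In CD69-lo cells at 24 h, 7 were called against 2 with only the compared groups. For 6 h against 1 h, NP gave 2 against 4 in DESeq2 and 5 with only the compared groups, and GP gave 3 against 5 with only the compared groups. 1 value reversed: *Lat*, MCC CD69-hi against MCC CD69-lo at 24 h, was 0.12 and not called, and -0.64 (adjusted p = 0.0385) with the covariate. The share of all genes called under each alternative is not given here, so these counts are not set against all genes. Whether they moved with that share was not tested. The causes were not tested.

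With each library left out, counts at 1, 6 and 24 h ran from 3 to 5, 6 to 8 and 4 to 6 for MCC CD69-hi against MCC CD69-lo. Against NP they ran from 6 to 8, 8 to 9 and 9 to 10 for MCC CD69-hi, and from 1 to 1, 0 to 1 and 4 to 5 for MCC CD69-lo. They ran from 7 to 9 for MCC+GP CD69-lo against MCC CD69-lo at 24 h, 0 to 1 for NP, 24 h against 1 h, 1 to 2 for NP, 6 h against 1 h, and 2 to 2 for GP, 6 h against 1 h. For the difference between the effects they ran from 5 to 6 between 24 h and 1 h, 2 to 6 between 6 h and 1 h, and 5 to 6 between 24 h and 6 h. These fits kept the genes and dispersion trend of the complete fit. Their shares of all genes called are not given here either. RLE size factors shifted the median of all genes by over 0.1 in 7 comparisons, the most by -0.28 (24 h effect against 1 h effect), and reversed no called member. Replicate numbers follow the order of plate wells within each group, so the same number need not mean the same round in 2 groups. Rounds were read from the wells in the titles, and the labels do not say what these stand for. At the same time, deviations from group means had a mean correlation of 0.256 (lowest -0.142) within rounds and -0.111 between rounds. Libraries of a round were thus more alike on average, and the main fit has no term for round. Apart from the counts above, the replicate block moved none by over 1.5 times. Depth limits MCC+GP CD69-lo at 24 h most.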
